A study of Mus musculus with 9 samples.

Results

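The Ms4a genes described here encode myeloid and T cell members of a family of proteins that cross the membrane repeatedly. They were taken by name from the deposited expression table of mouse liver, and 8 of the 9 listed genes were among its 24341 rows: Ms4a4b, Ms4a4c, Ms4a4d, Ms4a6b, Ms4a6c, Ms4a6d, Ms4a7, and Ms4a8a. The expression of Ms4a4a was not analysed here, though its upstream sequence was searched and aligned with the others, and Ms4a1, the B cell gene of the family, was left out of the list. RNA came from whole liver of wild-type C57BL/6 mice 2 days after anti-CD40, the agonist CD40 antibody FGK45 (3 mice, numbers 2, 5, and 9), or after PBS as the control (6 mice, numbers 3, 4, 7, 8, 11, and 12). The labels give no age, and no sequencing batch was named. Per the study's methods, antibody-treated mice whose blood B cells did not fall were left out of its experiments. Values are FPKM, that is, fragments counted for a gene after scaling to its transcript length and to the mapped fragments of the library, from libraries that read each transcript at its 3′ end. Because FPKM divides by transcript length, which 3′ reads do not follow, levels of different genes cannot be ranked against each other. In bulk liver, more cells of a type and more RNA per cell cannot be told apart.

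The best known family members are CD20, encoded by Ms4a1 and found on B cells, and the beta chain of the high-affinity IgE receptor, encoded by Ms4a2 and found on mast cells and basophils. The other proteins sit in the plasma membrane or in endosomes of leukocytes, where several have been described beside immune receptors whose signaling or trafficking they modify. MS4A4B is found on T and NK cells and restrains T cell proliferation, MS4A6 and MS4A7 proteins are found on monocytes and macrophages, and the liver has its own resident macrophages, the Kupffer cells, beside cells that enter from blood.

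The 8 genes lie in a single cluster on chromosome 19 of mm10, and all are protein-coding. From the lowest coordinate to the highest these are Ms4a8a (11067471 to 11081103), Ms4a7 (11321039 to 11336146), Ms4a4c (11407661 to 11427246), Ms4a4b (11443558 to 11463548), Ms4a6c (11469368 to 11482196), Ms4a6b (11518559 to 11530403), Ms4a4d (11536849 to 11558466), and Ms4a6d (11586606 to 11604804). Ms4a7 and Ms4a8a are transcribed from the minus strand in the RefSeq annotation.

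The 250 bases upstream of a start site (RefSeq, GRCm38.p6, plus strand) are printed for Ms4a4b and Ms4a4c. These 2 genes share an upstream stretch but differed in how far they rose. Capitals mark GAGGAA, a core sequence bound by the myeloid and B cell factor PU.1, which was the motif found in both.
Ms4a4b, chr19:11443308-11443557: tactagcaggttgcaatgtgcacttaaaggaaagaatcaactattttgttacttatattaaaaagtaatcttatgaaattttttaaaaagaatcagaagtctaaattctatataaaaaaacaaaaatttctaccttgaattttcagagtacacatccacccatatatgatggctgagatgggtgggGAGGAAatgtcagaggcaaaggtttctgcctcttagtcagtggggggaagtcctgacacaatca
Ms4a4c, chr19:11407411-11407660: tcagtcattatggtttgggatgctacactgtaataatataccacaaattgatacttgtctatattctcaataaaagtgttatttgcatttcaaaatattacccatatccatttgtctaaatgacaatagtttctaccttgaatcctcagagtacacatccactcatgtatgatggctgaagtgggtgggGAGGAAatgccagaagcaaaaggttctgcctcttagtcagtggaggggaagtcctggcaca
In Ms4a4b the motif began 64 bases before the start site used and in Ms4a4c 61 bases before it. The RefSeq gene Ms4a4c begins earlier, at 11404717. Its window therefore lies inside that gene, before a later start, and was not compared with the bases before the earlier one. The best local alignment of both windows held 114 identical positions of 128 (89.1%), with a longest identical run of 20 bases. The same stretch is printed for Ms4a6b and Ms4a6c, which shared an upstream stretch and whose fold changes were close. Capitals mark their longest identical run, 48 bases.
Ms4a6b, chr19:11518309-11518558: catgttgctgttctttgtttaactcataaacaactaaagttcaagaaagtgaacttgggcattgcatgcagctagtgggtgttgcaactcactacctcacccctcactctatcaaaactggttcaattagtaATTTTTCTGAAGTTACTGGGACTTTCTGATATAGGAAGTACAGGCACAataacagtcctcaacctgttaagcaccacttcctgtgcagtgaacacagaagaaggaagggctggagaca
Ms4a6c, chr19:11469118-11469367: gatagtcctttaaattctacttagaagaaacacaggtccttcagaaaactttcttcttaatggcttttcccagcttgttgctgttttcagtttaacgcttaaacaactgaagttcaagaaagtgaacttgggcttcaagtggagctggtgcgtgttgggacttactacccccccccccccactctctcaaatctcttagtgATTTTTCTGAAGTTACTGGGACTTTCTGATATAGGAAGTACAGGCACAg
Their alignment held 152 identical positions of 182 (83.5%). The RefSeq gene Ms4a6c begins at 11469353, within the last bases of its window. Over the 28 pairs of windows, which include that of Ms4a4a and none of Ms4a6d, the alignment score was 208 for Ms4a6b with Ms4a6c and 184 for Ms4a4b with Ms4a4c, and the next highest was 22. Besides GAGGAA, the interferon-stimulated response element and TTCNNNGAA (a STAT site) were searched on both strands of the 250 bases. No member window held an exact match to either, and these were found in 2.98% and 7.02% of all 32851 mouse windows of this length. Near matches were not counted, so elements with other letters could be present. GAGGAA was found in 23.3% of all windows. A match is a description of the letters and not a binding site.

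**Figure D1:**
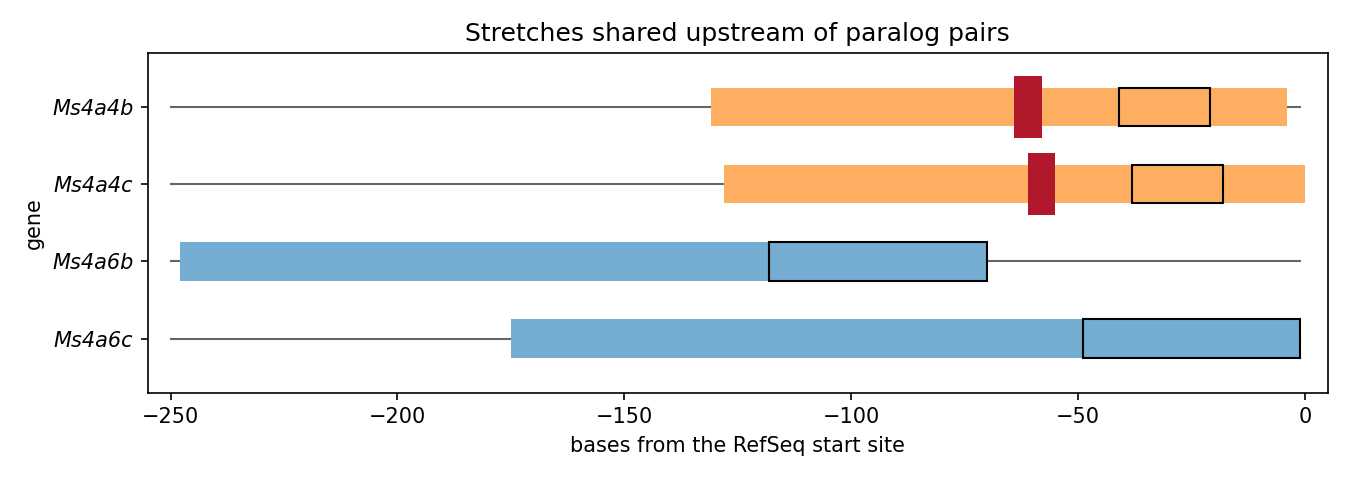
The 250 bases before the start site used for 4 members are drawn to scale, a later start in Ms4a4c. The x axis gives distance from that site in bases. Colored bars mark the stretch aligned within each pair, and black boxes the longest identical run (20 bases in the upper pair, 48 in the lower). Red marks the PU.1 core. Both pairs share a long stretch, at different distances from the start site in Ms4a6b and Ms4a6c.

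Of the 8 members, 7 were higher after anti-CD40 and 1, Ms4a8a, did not pass the test (limma on log2(FPKM + 0.1), Benjamini-Hochberg adjusted p under 0.05). Of the 13807 genes tested, those whose mean FPKM was 0.1 or more, 45.1% passed, 23.5% as higher and 21.7% as lower. All 8 members in the table passed that filter. The increase reached 2-fold in 6 members, against 13.7% of all genes tested, and the groups did not overlap in 7, all of them higher, beside 22.7% of all genes higher without overlap and 19.6% lower. The members had a median log2 fold change of 2.49, beside 0.0056 over all genes tested. A pseudocount of 0.1 understates the fold changes of low genes. For a single gene, the smallest p of the exact permutation test over the 84 splits of 9 mice is 0.0238, and each of the 7 members reached it.

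**Figure D2:**
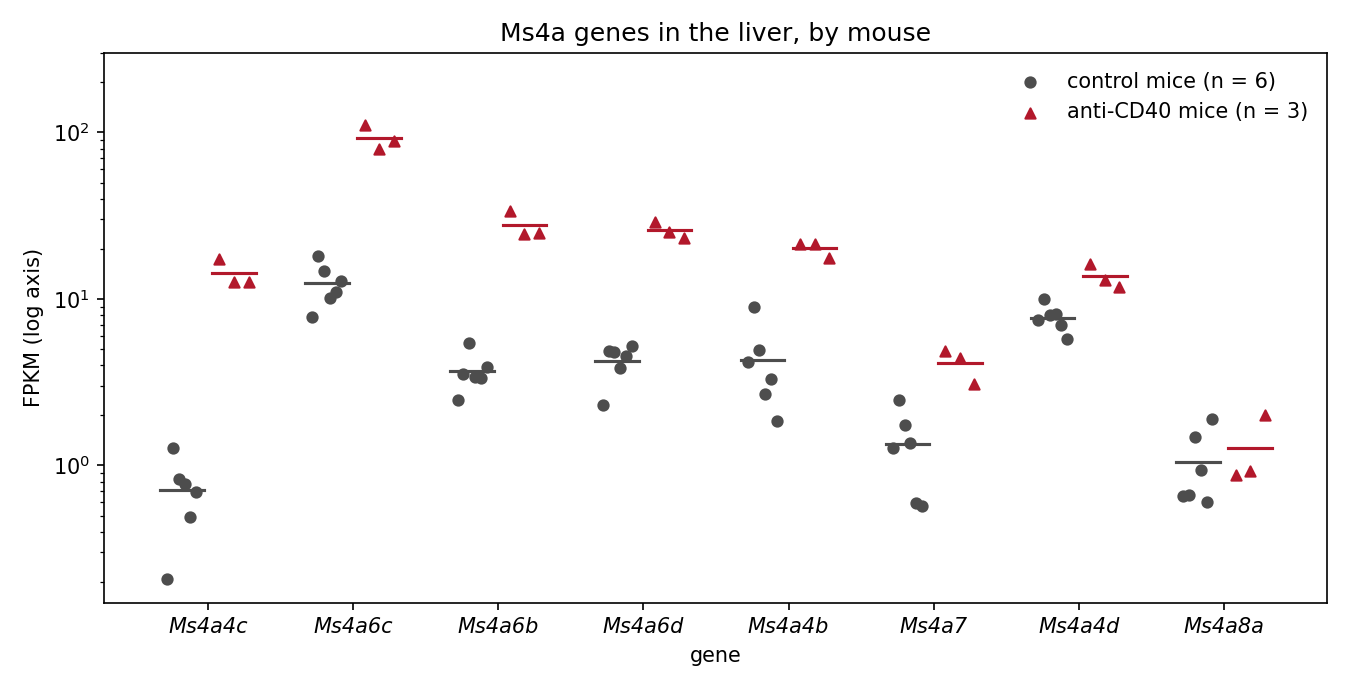
FPKM (log axis) of the 8 members, 1 point per mouse for the 3 anti-CD40 and 6 control mice, with bars at the group means. The groups are apart in 7 members, with the widest gap in Ms4a4c, and overlap in Ms4a8a.

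The libraries had similar relative depth, 0.991 to 1.13 with anti-CD40 and 0.870 to 1.06 without, as read from the steps between low FPKM values, since the table gives no totals. The liver label held, with Alb, which encodes albumin, at a mean FPKM of 933 after anti-CD40 and 5040 in control mice. Across genes, Pearson r between mice was 0.953 to 0.980 within a group and 0.897 to 0.921 between groups. Saa1, Saa2, and Saa3 made up 25.4% to 25.9% of summed FPKM with anti-CD40 and 0.380% or less in the controls. Leaving these genes out and rescaling moved the median over all genes, on the log2 scale, from 0.0056 to 0.35, and the 7 members kept their direction and their call.

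Among the myeloid members, the Ms4a6 genes rose by similar amounts. Ms4a6c, found in monocytes and macrophages, had an FPKM of 111.0, 79.5, and 89.1 in anti-CD40 mice 2, 5, and 9, and from 7.79 to 18.2 with a median of 11.9 in control mice. The lowest treated mouse lay far above the highest control, mouse 4. The mean was 93.2 ± 16.1 (SD, n = 3) with anti-CD40 against 12.4 ± 3.66 (SD, n = 6), and the log2 fold change was 2.93 (SE 0.24, adjusted p = 6.77e-06 from limma).

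Ms4a6b is found in T cells and in macrophages. It was measured at 33.7, 24.5, and 24.8 FPKM in treated mice 2, 5, and 9 and ran from 2.47 to 5.43 with a median of 3.48 in control mice. Mouse 2 was the highest, as for Ms4a6c, and the groups were far apart. The mean of 3.69 ± 0.977 (SD, n = 6) in the controls became 27.7 ± 5.23 (SD, n = 3), a rise of 2.90 in log2 (SE 0.21, adjusted p = 3.97e-06 from limma). Reads of Ms4a6b and Ms4a6c could be shared, since the last 500 bases of their GENCODE transcripts hold an identical run of 60 bases, where the median over the 28 pairs of members was 10. The counting of such reads is not given in the sources used here, so the closeness of these values is uncertain.

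Ms4a6d, a myeloid gene whose protein has been described beside VSIG4 on macrophages, had an FPKM of 29.1, 25.1, and 23.2 after anti-CD40. The control values ran from 2.29 to 5.19 with a median of 4.67. The treated mice lay within a narrow range well above all controls. Its mean was 25.8 ± 3.02 (SD, n = 3) against 4.25 ± 1.06 (SD, n = 6), or 2.61 in log2 (SE 0.23, adjusted p = 1.29e-05 from limma).

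Ms4a7, found in macrophages, was at 4.83, 4.42, and 3.07 FPKM in anti-CD40 mice 2, 5, and 9, from at least 115, 99, and 64 reads. In control mice it ran from 0.569 to 2.48 with a median of 1.32, or at least 11 to 55 reads. The highest control, mouse 4, came near the lowest treated mouse without reaching it. The means of 4.11 ± 0.923 (SD, n = 3) and 1.34 ± 0.726 (SD, n = 6) gave a log2 fold change of 1.69 (SE 0.41, adjusted p = 0.00703 from limma).

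Ms4a8a has been described in epithelium and in alternatively activated macrophages. It was at 0.876, 0.931, and 2.00 FPKM in treated mice 2, 5, and 9, and from 0.604 to 1.90 with a median of 0.801 in control mice. Mouse 9 alone lay above all controls, and the other treated mice lay among them. These values rest on at least 17 to 34 reads after anti-CD40 and 10 to 30 in control mice. The log2 fold change was 0.29 (SE 0.39, adjusted p = 0.567 from limma; exact permutation p = 0.548), and it was -0.066 without anti-CD40 mouse 9.

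The Ms4a4 genes, in contrast, rose by unequal amounts. Ms4a4c, a little-studied gene of this branch, showed the largest change of the 8 members, with 17.4, 12.6, and 12.7 FPKM in anti-CD40 mice 2, 5, and 9 (at least 585, 399, and 375 reads). Control mice ran from 0.207 to 1.28 with a median of 0.734, from at least 6 to 40 reads. No treated mouse came near a control mouse. The control mean of 0.711 ± 0.358 (SD, n = 6) rose to 14.2 ± 2.73 (SD, n = 3), a ratio of means of 20.03 and a log2 fold change of 4.27 (SE 0.39, adjusted p = 1.38e-05 from limma), which ranked 77 of the 13807 genes from the highest. With a pseudocount of 1 in place of 0.1, the log2 fold change was 3.17.

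Ms4a4b, the T and NK cell member, had 21.4, 21.2, and 17.6 FPKM in anti-CD40 mice 2, 5, and 9, from at least 360 to 500 reads. Control mice ran from 1.85 to 8.98 with a median of 3.75. The control mice were spread widely, and mouse 4 was again the highest of them, below all treated mice. Its mean was 20.1 ± 2.15 (SD, n = 3) with treatment against 4.32 ± 2.53 (SD, n = 6), or 2.36 as a log2 fold change (SE 0.39, adjusted p = 7.00e-04 from limma).

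Ms4a4d changed least of the 7 that rose. Its FPKM was 16.3, 13.04, and 11.7 after anti-CD40, and from 5.77 to 10.01 with a median of 7.73 in control mice. The gap between groups was narrow, with control mouse 4 at the top of the controls. Means of 13.7 ± 2.34 (SD, n = 3) against 7.73 ± 1.41 (SD, n = 6) gave a difference of 0.82 in log2 (SE 0.17, adjusted p = 0.00295 from limma).

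**Figure D3:**
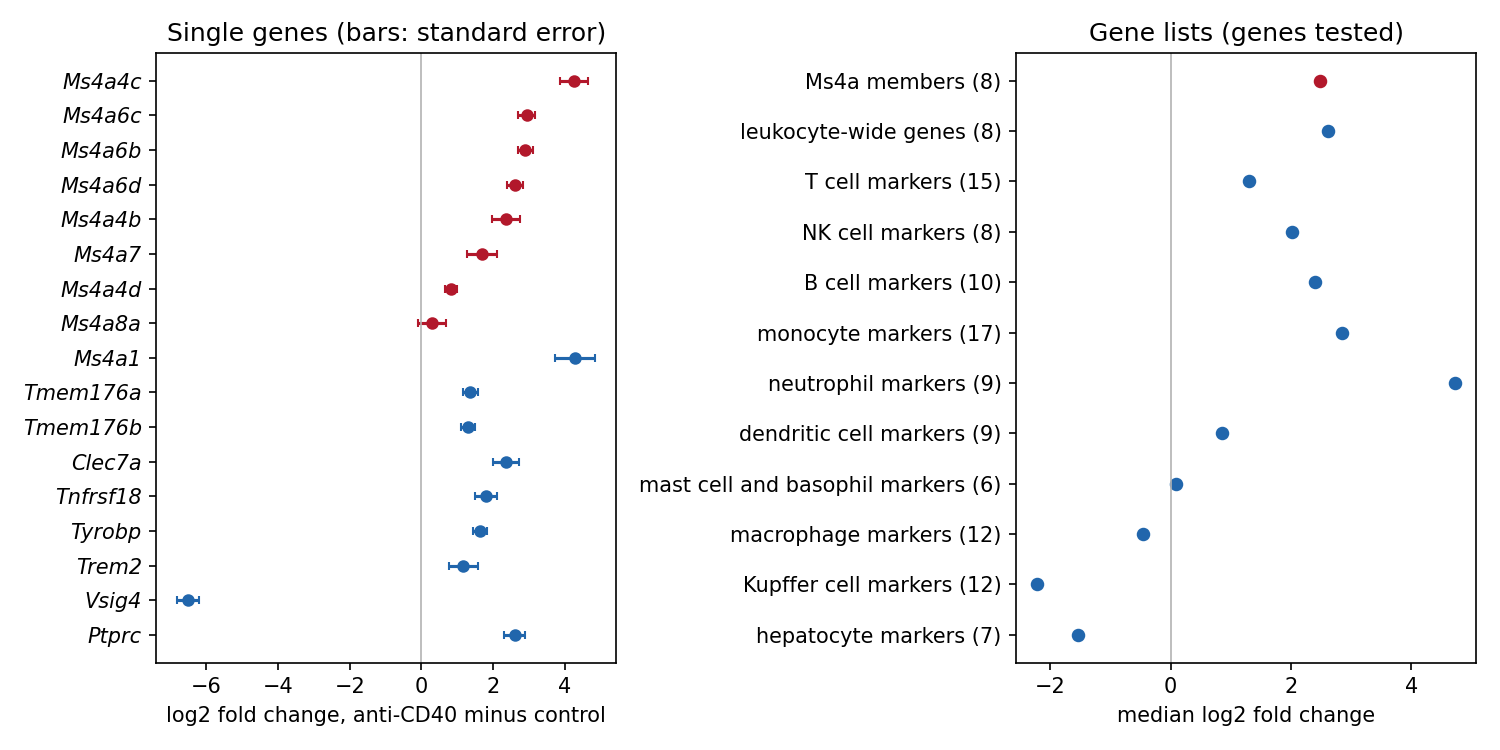
Left, log2 fold change (anti-CD40 minus control) of the 8 members (red) and of related, partner, and leukocyte reference genes (blue), with bars of 1 standard error from limma; right, the median log2 fold change of each gene list, with the number of genes tested in parentheses. Among the members Ms4a4c is highest at 4.27 and Ms4a8a lowest at 0.29, and the members' median of 2.49 lies beside 2.61 for leukocyte-wide genes.

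Within each branch, the response of one gene was compared with that of another as the log2 ratio of their values in each mouse, over 6 pairs. In the Ms4a4 branch all 3 pairs differed. The ratio of Ms4a4c to Ms4a4d was from -0.048 to 0.11 on the log2 scale in treated mice and from -4.62 to -2.88 in control mice, a difference of 3.44. Ms4a4b over Ms4a4c fell by 1.90, and Ms4a4b over Ms4a4d rose by 1.54 (each exact permutation p = 0.0238, adjusted p = 0.0476 over the 6 pairs, without overlap). With any control mouse left out these adjusted p were 0.0536 or 0.0714, the smallest p being 0.0357. Ms4a4b and Ms4a4c, which share the upstream stretch printed above, were therefore not raised equally.

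In the Ms4a6 branch no pair passed. Ms4a6b over Ms4a6c differed by -0.037 on the log2 scale (exact permutation p = 0.690) and lay between -0.16 and 0.023 when each mouse was left out. The difference was 0.29 for Ms4a6b over Ms4a6d (exact permutation p = 0.167, adjusted 0.2) and 0.32 for Ms4a6c over Ms4a6d (exact permutation p = 0.119, adjusted 0.179). Leaving out each mouse moved these from 0.23 to 0.36 and from 0.27 to 0.41.

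Ptprc encodes CD45, a phosphatase on nearly all leukocytes. It rose to 10.8 ± 1.26 FPKM (SD, n = 3) from 1.81 ± 0.782 (SD, n = 6), by 2.60 in log2 (SE 0.29, adjusted p = 5.47e-05 from limma), so each member was also set against Ptprc in the same mouse. Relative to Ptprc, Ms4a4c rose and Ms4a4d, Ms4a7, and Ms4a8a fell, each without overlap (exact permutation p = 0.0238, adjusted p = 0.0476 over the 8 members, and 0.0714 with any control mouse left out). Among all genes tested, 1.04% were higher and 90.2% lower relative to Ptprc without overlap. The 3 that fell therefore did what most genes of the table did, whereas few of all genes in the liver rose as Ms4a4c did. Some leukocyte genes also had a log2 fold change above the 2.60 of Ptprc. It was 4.30 for the B cell gene Ms4a1 and 5.61 for the monocyte gene Ly6c2, with a median of 4.73 over neutrophil markers. T and NK cell markers had lower medians, 1.30 and 2.02.

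For Ms4a4c the log2 ratio to Ptprc was 0.27 to 0.51 in treated mice and -2.20 to -0.64 in control mice, a difference of 1.67. Ms4a4d fell by 1.78, from 1.64 to 2.42 in control mice to 0.26 to 0.41 after anti-CD40. Ms4a7 fell by 0.91 and Ms4a8a by 2.31 on the log2 scale. When limma was applied to the ratio in all genes, where 1.14% were higher and 92.8% lower, these 4 passed with adjusted p from 5.08e-05 to 0.0125, but Ms4a7 did not without anti-CD40 mouse 9 (adjusted p = 0.0781).

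Ms4a4b, Ms4a6b, Ms4a6c, and Ms4a6d overlapped between groups relative to Ptprc. Their differences were -0.24, 0.30, 0.34, and 0.013 on the log2 scale (exact permutation p = 0.381, 0.357, 0.190, and 0.952). The treated mice lay close together in Ms4a6d, at 1.23 to 1.26, inside the control range of 0.61 to 2.096. With the mean of 8 leukocyte-wide genes in place of Ptprc, Ms4a6c passed with a difference of 0.52 (exact permutation p = 0.0238, adjusted 0.0476) and Ms4a7 did not, at -0.72 (exact permutation p = 0.143, adjusted 0.190).

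**Figure D4:**
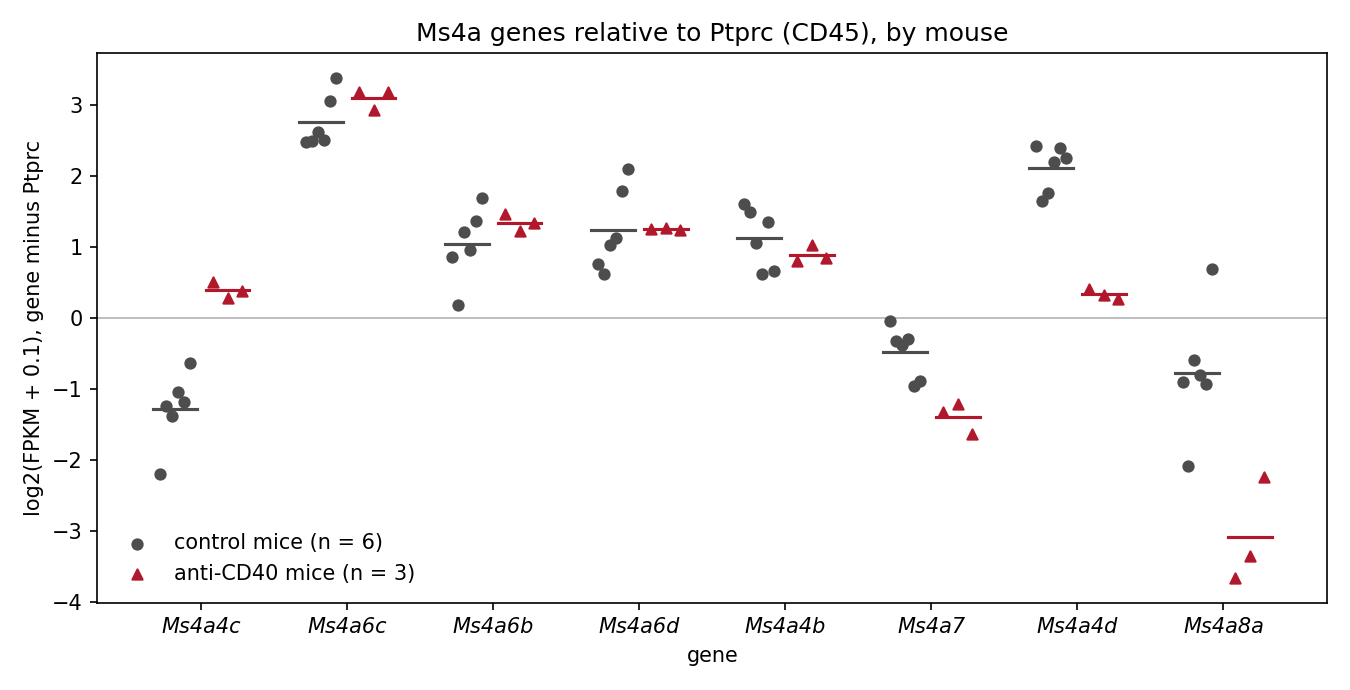
Log2 ratio of each member to Ptprc in the same mouse, 1 point per mouse for the 3 anti-CD40 and 6 control mice. Treated mice lie above all controls in Ms4a4c, below all in Ms4a4d, Ms4a7, and Ms4a8a, and among them in the other 4 members.

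Some proteins of this family have been described beside receptors whose genes were also measured: GITR with MS4A4B, VSIG4 with MS4A6D, and Dectin-1 and TREM2 with MS4A4A. Of the 5 genes, 4 rose and 1 fell. Tnfrsf18, which encodes GITR, a receptor of activated and regulatory T cells, was at 6.61 ± 0.878 (SD, n = 3) against 1.92 ± 0.708 (SD, n = 6), or 1.81 in log2 (adjusted p = 8.01e-04 from limma). Clec7a, which encodes the fungal glucan receptor Dectin-1, rose by 2.35, and Tyrobp, which encodes the signaling adaptor DAP12 of TREM2, by 1.64 (adjusted p = 4.49e-04 and 9.05e-05 from limma).

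Trem2, a lipid receptor of macrophages, was at 1.58, 0.759, and 1.28 FPKM after anti-CD40, and from 0.251 to 1.26 with a median of 0.406 in control mice. Mouse 4 among the controls lay above 1 treated mouse, so the groups overlapped. The log2 fold change was 1.17 (SE 0.39, adjusted p = 0.0320 from limma), and the call was lost in 9 of 18 alternatives, among them leaving out anti-CD40 mouse 2 or 9 (adjusted p = 0.138 and 0.0995) or any control mouse other than 4 (0.0501 to 0.0593).

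Vsig4, a complement receptor of Kupffer cells, fell in all treated mice. Its FPKM was 0.147 to 0.756 after anti-CD40 and 33.1 to 47.7 in the controls, with a log2 fold change of -6.50 (SE 0.31, adjusted p = 3.25e-07 from limma). It moved against Ms4a6d, the member whose protein has been described beside it, in the same mice.

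Other Ms4a genes and their relatives were counted from a list of 16, of which 12 were in the table and 3 passed the filter, all higher. Ms4a1, the B cell gene CD20, was at 15.0 ± 2.16 (SD, n = 3) with treatment against 0.860 ± 0.714 (SD, n = 6), or 4.30 higher in log2 (SE 0.56, adjusted p = 1.42e-04 from limma). The table gives its row the same position as 2 other rows, so its reads are uncertain. Tmem176a and Tmem176b, related membrane proteins of myeloid cells that lie outside the cluster, rose by 1.37 and 1.30 (adjusted p = 4.09e-04 and 3.71e-04 from limma).

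The rest were at or near the limit of detection. Ms4a2, the mast cell and basophil member, had at least 1 or 2 reads in each treated mouse and from 0 to at least 3 in the controls. Ms4a3, a gene of granulocyte progenitors, had 0, at least 5, and at least 3 reads in treated mice 2, 5, and 9. It had at least 2 reads in a single control mouse. Ms4a15 and Ms4a20 were above the floor of 0.01 FPKM in anti-CD40 mouse 5 only, at 0.0318 and 0.0485 FPKM. A single mouse above the floor does not give a read number. Ms4a5, Ms4a10, Ms4a13, Ms4a18, and Ms4a19 were listed at 0.01 in all 9 mice.

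Markers of the cells known to carry these genes moved in the same mice, and their part in the members' changes was not tested. Among 8 leukocyte-wide genes all rose, with a median log2 fold change of 2.61 and summed FPKM of 1052 to 1560 after anti-CD40 against 134 to 237 in control mice. Each sum here and below depends most on its genes of highest FPKM. Cd52 made up most of the leukocyte-wide sums (mean FPKM 1112 after anti-CD40 against 131 in control mice). Of 17 monocyte markers 13 rose and 4 did not pass (median 2.85, sums of 1112 to 1395 against 280 to 409), and the defining genes Ly6c2, a surface antigen of inflammatory monocytes, and Ccr2, their chemokine receptor, rose by 5.61 and 2.80. Plac8 and Fn1 together made up most of the monocyte sums. Their mean FPKM was 568 and 283 after anti-CD40 against 73.1 and 172 in control mice. The log2 fold changes of the Ms4a6 genes were 2.61 to 2.93.

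T and NK cell markers rose as well. Of 18 T cell markers 15 passed the filter and 14 rose, with a median log2 fold change of 1.30 and sums of 21.1 to 24.3 against 5.34 to 8.71. Cd3d, a chain of the T cell receptor complex, rose by 1.30, Cd4 did not pass (0.49, adjusted p = 0.0900 from limma), and Trat1 was listed at the floor in every mouse. All 8 tested NK cell markers of 10 rose, with a median of 2.02 and sums of 77.3 to 108 against 7.34 to 17.2. Gzma made up most of the NK cell sums after anti-CD40 (mean FPKM 72.3, against 3.96 in control mice). Ms4a4b, at 2.36, was above both medians.

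Macrophage markers were mixed, with 3 of 12 higher, 5 lower, and 4 not past the test (median -0.46, sums of 243 to 282 against 360 to 507). Of 12 Kupffer cell markers, which include Vsig4, 10 fell and 2 did not pass (median -2.22, sums of 312 to 373 against 729 to 1128). The macrophage member Ms4a7 rose while the defining Kupffer cell gene Clec4f fell by 6.77 on the log2 scale. Among the macrophage markers, Cd68, a lysosomal membrane protein, rose by 1.71 and C1qa, a chain of complement C1q, fell by 1.98.

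The remaining lists give the other cells of the tissue. All 9 tested neutrophil markers rose (median 4.73, sums of 4220 to 5207 against 18.4 to 156), as did all 10 tested B cell markers (median 2.39, sums of 34.9 to 51.2 against 2.22 to 9.42). Of 9 dendritic cell markers 7 rose (median 0.85, sums of 22.9 to 26.9 against 4.27 to 8.41). Of 6 mast cell and basophil markers 3 rose (median 0.095, sums of 16.8 to 21.8 against 4.64 to 7.11). Hdc, which encodes the enzyme that makes histamine, made up most of these sums (mean FPKM 16.4 against 3.84). Fcer1a was at the floor in all anti-CD40 mice and at 0.0645 FPKM or less in control mice, and it did not pass the filter. Of 7 hepatocyte markers 5 fell and 2 rose (median -1.53, sums of 8993 to 10587 against 14788 to 29210).

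Each member was then set beside the 2 genes with the nearest profile, by the Euclidean distance between centered log2 values over the 9 mice. This is a description of profile only. Ms4a4b was nearest to Klrd1, a receptor of NK cells and cytotoxic T cells (distance 0.474), and Fam26f (0.573), and Ms4a4c to Pou2af1, a coactivator of B cells (0.595), and Ccl5, a chemokine of T and NK cells (0.802). Ms4a4d was nearest to Ep300 (0.189) and Kazn (0.259), with small changes like its own.

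The Ms4a6 genes had different nearest genes. Ms4a6b was nearest to Gbp5, an interferon-induced GTPase (0.4003), and Tnip1 (0.545), Ms4a6c to Dusp2 (0.354) and the lymphocyte receptor Ly9 (0.360), and Ms4a6d to Pik3r5 (0.380) and Sgol2a (0.382). Ms4a7 and Ms4a8a were farther from their nearest genes, at 0.693 (Gm15133) and 0.893 (2310034O05Rik).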

How the data were processed

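Liver RNA of 9 mice (3 anti-CD40, 6 control) was sequenced with QuantSeq 3′ libraries on a NextSeq 500. Per the labels and the study's methods, the authors aligned reads to mm10 with STAR and computed FPKM with Cufflinks and CuffDiff. The deposited FPKM table has a floor of 0.01, and its annotation and filter are not given in the sources used here. The 15 genes with a failed estimate were left out. The 13807 genes whose mean FPKM reached 0.1 were tested as log2(FPKM + 0.1) with limma 3.58.1 in R 4.3.3 (eBayes with a trend, 2-sided), with Benjamini-Hochberg adjustment at 0.05, and single values with a 2-sided exact permutation test over 84 splits. Each library is a separate mouse. The limma p-values set the group difference against the variation between mice, moderated over all genes. The exact p-values compare the observed split with all 84.

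No read totals are given, so depth is unknown and no intervals were computed. FPKM steps gave whole reads, as the smallest whole numbers that fit within 0.06, for 5 members (not for the Ms4a6 genes), and these could be higher. The same holds for the read numbers of other genes. The scripts were tested on simulated data.

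Members and gene lists were chosen with earlier results of these data known. Named were all members, the other Ms4a family and partner genes, Ptprc, the first 2 genes of each marker list, and the 2 nearest genes of each member; not all of those markers are reported. Cd4, Trat1, C1qa, Hdc, Cd52, Plac8, Fn1, Gzma, and Gm8369 fall outside this rule and were chosen after their values were seen. Nearest genes and upstream alignments used Python 3.11.15 with numpy 2.4.6, pandas 2.3.3, scipy 1.17.1, and Biopython 1.88, and figures matplotlib 3.10.9. Upstream sequences and gene names were taken from RefSeq (GRCm38.p6) and transcripts from GENCODE M21. The promoter table held 8 of the 9 listed members and not Ms4a6d. Alternatives were a pseudocount of 1 or 0.01, no filter on low values or a minimum mean of 1, quantile and median of ratios scaling, leaving out Saa1, Saa2, and Saa3, eBayes without the trend or robust, weights per mouse, a 2-fold minimum, a different leukocyte reference, and leaving out each mouse. The limma fit on the ratio to Ptprc was chosen after seeing the data.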

Additional observations from a re-analysis of the deposited data

Results flagged for a closer look

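In 28 sets of 6 control values, 5 held a value far from the others, and each was control mouse 4 as the highest. Chance flags about 1 in 20 sets if they are independent. These sets come from the same 6 mice and some hold values at the floor, so that rate does not apply to them. For Clec7a control mouse 4 had 30.5 FPKM and for Trem2 1.26 FPKM, with gaps to the next mouse of 0.630 and 0.774 of the control range. Ms4a2 was at 0.0654 FPKM and Ms4a3 at 0.121 FPKM, which rest on at least 3 and 2 reads, with gaps of 0.704 and 1 of the range. Gm8369, a row between Ms4a6c and Ms4a6b that was chosen after its values were seen, was at 0.622 FPKM (gap 0.727). No member was among them. Without control mouse 4 the 7 members that rose still passed, and the log2 fold change of Ms4a4c was 4.45.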

How the results depend on the processing

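The 7 members that rose kept their direction in every alternative run. They also kept their call, with the highest adjusted p from limma at 0.0374 for Ms4a7, except Ms4a4d when a fold change of at least 2 was also asked. Leaving that minimum aside, 150 of the 152 values over 8 members kept their direction and their result. Ms4a8a reversed to -0.062 with quantile normalization and to -0.066 without anti-CD40 mouse 9 (-0.066 to 0.49 leaving out each mouse), and it passed the threshold in none. The count of members higher was 6 to 7 in all alternatives, the lower number when a fold change of at least 2 was also asked. Over all genes, 3240 higher and 2990 lower became 5592 and 1649 on rescaling without Saa1, Saa2, and Saa3 (which shifts every gene), and 1889 and 1253 with a fold change of at least 2. Leaving out each mouse gave 2539 to 3539 higher and 2336 to 3269 lower. The paralog pairs passing fell from 3 to 0 (range 0 to 0), and the members whose ratio to Ptprc differed from 4 to 0, when any control mouse was left out of the exact test, because the smallest p is then 0.0357: 3 or 4 pairs and 4 members kept an unadjusted p under 0.05, and adjusted p were 0.0536 or 0.0714. Without an anti-CD40 mouse the smallest p is 0.0714, so this test was not run there. With limma on the ratio, leaving out each mouse gave 3 to 4 members. A pseudocount of 1 gave 5 members. No paired analysis was possible because the groups share no mouse number. Ms4a8a rested on at least 10 to 34 reads in a mouse. The smallest numbers that fit Ms4a2 and Ms4a3 were 5 or fewer, so counting error is part of the spread of these genes.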

Other observations

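Gm8369, a row that the table places between Ms4a6c and Ms4a6b and that is no listed member, had 2.32, 1.40, and 1.23 FPKM in anti-CD40 mice 2, 5, and 9 and from 0.0502 to 0.622 with a median of 0.0928 in control mice. It rested on at least 28 to 60 reads after anti-CD40 and 1 to 15 in control mice. The groups did not overlap, and the log2 fold change was 2.77 (SE 0.46, adjusted p = 6.78e-04 from limma). It was chosen after its values were seen.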
